A study of Mus musculus with 9 samples.

Results

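The 10 genes described here are used by enterocytes to take up, carry and export dietary fat and retinol: Apoa1, Apoa4, Apoc3, Apoc2, Apob, Mttp, Fabp1, Fabp2, Rbp2 and Cd36. They were picked out by symbol and make up 10 of the 24505 genes in the deposited transcription table. The 10 regions of the deposited H3K27me3 tables that carry one of these names, of 49405 regions, were followed with them. All samples came from organoids, cultured mini-guts of mouse duodenum. Nascent transcription was read by GRO-seq, in which engaged RNA polymerases extend labelled RNA in isolated nuclei. There were 6 such libraries, 2 from each of 3 cultures. RANKL, named for the cytokine that drives M cell formation, is labelled intestinal M cell, ENRI is labelled enterocyte, and WENRC is labelled intestinal stem cell. ChIP-seq of H3K27me3, a repressive histone mark laid down by Polycomb complexes, was made from RANKL (2 libraries, pooled by the authors) and WENRC (1 library). The labels give no strain, genotype, age, sex, dose or culture time and do not spell out the culture names. ENRI and WENRC libraries carry a mouse number, whereas the RANKL libraries carry only a replicate number, so the spread between RANKL libraries may be technical. The test used below takes 1 estimate of spread per gene from all 6 libraries. This limit therefore holds for p-values of each comparison, WENRC against ENRI included.

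In the absorptive cell, fatty acids enter with the help of transporters such as Cd36, are held in the cytosol by the binding proteins Fabp1 and Fabp2, and are built back into triglyceride. Mttp loads that triglyceride onto Apob, and the particle leaves the cell as a chylomicron that also carries Apoa1, Apoa4, Apoc2 and Apoc3. Retinol, bound in the cytosol by Rbp2, is esterified and leaves in the same particles. Most of these genes are textbook markers of the mature villus enterocyte, and several are also strong liver genes.

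Values below are the authors' normalized GRO-seq levels summed over the whole gene, on a log2 scale, and the errors of means are SDs of 2 libraries. A change is a difference of means on that scale, tested with limma across 16563 genes, and a gene is called at a Benjamini-Hochberg adjusted p (FDR) under 0.05. The labels held up against markers in part: 7 of 7 M cell markers were called higher in RANKL than in ENRI and than in WENRC, 6 of 6 stem cell markers were higher in WENRC than in ENRI, and 7 of 9 enterocyte markers were lower in WENRC than in ENRI. Stem cell markers did not separate RANKL from WENRC, with 1 of 6 called higher and 1 lower. Library-to-library scatter was uneven, with an SD across genes of the replicate difference of 0.22 in RANKL, 0.42 in WENRC and 0.70 in ENRI. Per the file headers, the RANKL libraries are combined reads of a repeat sequencing and the other libraries are not, so that sequencing run and RANKL culture cannot be told apart.

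Promoters of 9 of the 10 members were matched in the RefSeq table of the GRCm38.p6 build, and the 250 bases before the start site of 5 of them are shown because they hold a match to the HNF4 or DR1 letters below, which textbook accounts tie to enterocyte and liver genes. These coordinates are GRCm38 and are not comparable with the mm9 coordinates of the measurements. The letters searched, on both strands, were CAAAGTNCA for HNF4, a pair of AGGNCA half-sites 1 base apart in the same direction for the DR1 repeat read by nuclear receptors, GTTAAT for an HNF1 half-site, TTTATNG for CDX, AGATAA for GATA and TATAAA for the TATA box. Matches are in capitals in sequences written 5′ to 3′ on the strand of the gene. Apoa4 lies at chr9:46240594-46240843 on the plus strand, Apoc2 at chr7:19677942-19678191 on the minus strand, Fabp1 at chr6:71199629-71199878, Fabp2 at chr3:122894822-122895071 and Rbp2 at chr9:98490287-98490536, all 3 on the plus strand.
Apoa4: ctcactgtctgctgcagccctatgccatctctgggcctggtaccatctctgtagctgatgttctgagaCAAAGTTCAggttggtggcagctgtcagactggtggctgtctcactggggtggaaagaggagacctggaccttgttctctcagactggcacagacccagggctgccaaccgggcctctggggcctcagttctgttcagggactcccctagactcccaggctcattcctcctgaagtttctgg
Apoc2: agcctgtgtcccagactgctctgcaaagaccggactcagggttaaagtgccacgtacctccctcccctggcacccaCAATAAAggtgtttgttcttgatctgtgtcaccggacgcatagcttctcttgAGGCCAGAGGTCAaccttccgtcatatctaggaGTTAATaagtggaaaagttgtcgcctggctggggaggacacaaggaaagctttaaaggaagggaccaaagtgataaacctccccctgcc
Fabp1: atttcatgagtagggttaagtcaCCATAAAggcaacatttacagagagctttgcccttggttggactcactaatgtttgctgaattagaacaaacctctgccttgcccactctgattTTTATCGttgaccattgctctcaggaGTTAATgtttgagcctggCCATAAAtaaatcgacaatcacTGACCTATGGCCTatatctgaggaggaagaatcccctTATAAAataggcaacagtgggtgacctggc
Fabp2: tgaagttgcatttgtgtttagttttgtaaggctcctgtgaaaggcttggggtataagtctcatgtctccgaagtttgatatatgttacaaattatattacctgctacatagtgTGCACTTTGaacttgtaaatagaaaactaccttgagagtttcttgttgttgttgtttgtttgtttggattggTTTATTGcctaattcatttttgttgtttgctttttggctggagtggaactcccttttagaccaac
Rbp2: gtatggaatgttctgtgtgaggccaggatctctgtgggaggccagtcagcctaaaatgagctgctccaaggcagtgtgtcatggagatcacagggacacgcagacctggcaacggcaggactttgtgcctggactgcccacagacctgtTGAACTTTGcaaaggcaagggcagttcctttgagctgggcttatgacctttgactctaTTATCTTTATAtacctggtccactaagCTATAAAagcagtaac

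The HNF4 letters stood at -182 to -174 from the start site in Apoa4, at -137 to -129 in Fabp2 and at -101 to -93 in Rbp2, against 1.19% of all 32851 promoters of this length. The DR1 letters stood at -67 to -55 in Fabp1 and at -122 to -110 in Apoc2, against 0.338% of promoters, and both of these genes also held the HNF1 half-site, against 6.43%. CDX letters were found in 5 of the 9 member promoters (Fabp1, Fabp2, Apoc2, Rbp2 and Apob), against 9.81%, and TATAAA in Fabp1, Rbp2 and Apob, against 12.4%. TATAAA stood at -30 to -25 in Fabp1 and at -60 to -55 in Apob. In Rbp2 it stood at -15 to -10 and, on the opposite strand, at -38 to -33. Over all promoters, on the strand of the gene, it was commonest at -30 to -21. The CDX and TATA matches overlap each other in Rbp2 and Apob, and the GATA match of Rbp2, against 9.99% of promoters, shares a base with a TATA match. A match is a description of letters, and binding of these factors was not measured here.

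All 10 genes were transcribed most in ENRI, the culture labelled enterocyte, where no library fell below any library of RANKL or WENRC. WENRC was lower than ENRI for 10 of 10 members by the test, with changes from -2.59 for Cd36 to -5.50 for Apoa1. Across all tested genes 9.74% were called lower in this comparison, and 29.2% had WENRC libraries wholly below ENRI libraries, as all 10 members did. The members' median change was -3.49, against -0.01 over all tested genes. Every member was lower in WENRC within mouse 1 and within mouse 2, and the difference was larger in mouse 2 for 9 of 10, Cd36 being the exception. These calls leaned on the set of libraries used: after leaving the RANKL pair out, 0 members and 0 genes were called by limma (10 members and 4074 genes at an unadjusted p under 0.05), and the members' changes were the same. In bulk samples such as these, fewer cells of a type and less RNA per cell cannot be told apart. Calls over all tested genes, the members' included, were likewise lost without RANKL 1, RANKL 2 or WENRC 2, and mostly lost without WENRC 1. The change of Apoa1 was -5.79 without WENRC 1 and -5.21 without WENRC 2, and that of Cd36 was -2.05 and -3.13.

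**Figure D1:**
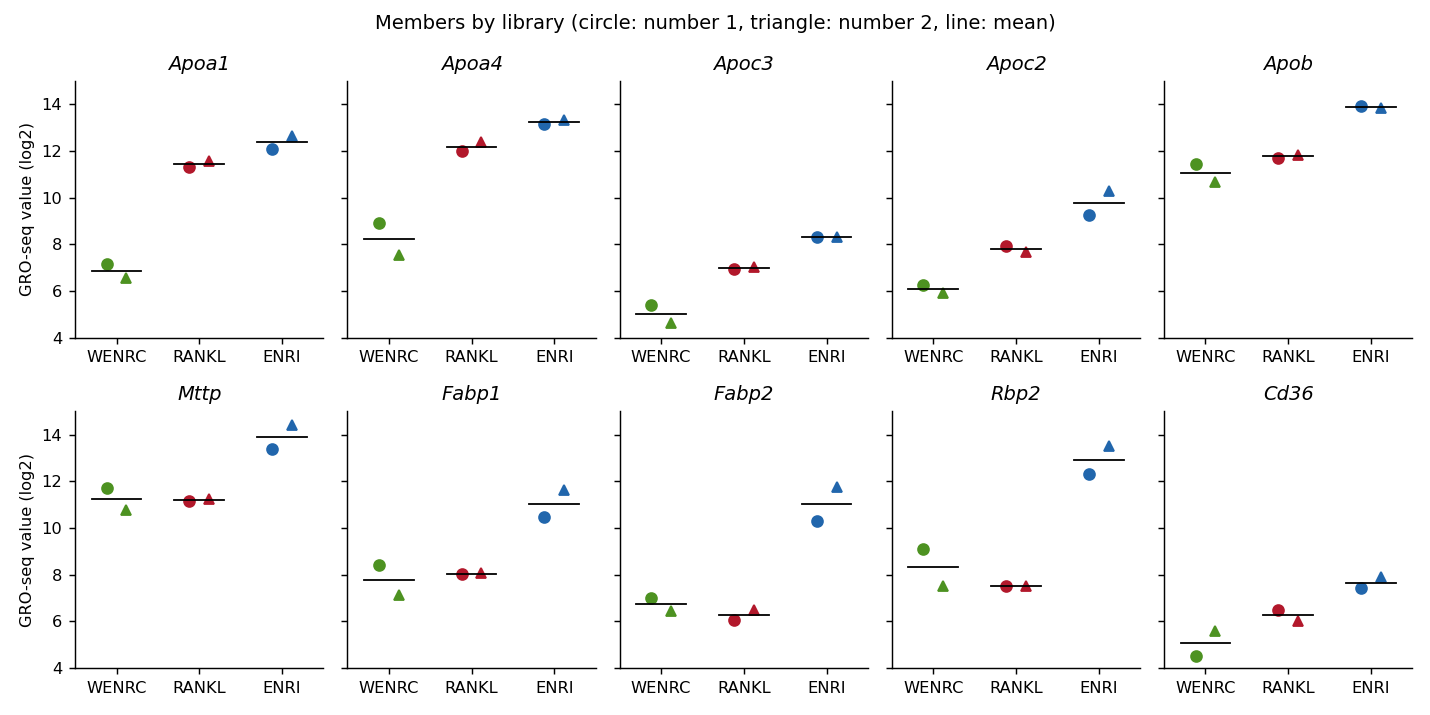
GRO-seq level (authors' normalized values, log2 scale) of each of the 10 genes in the 6 libraries, with circles for library 1, triangles for library 2 and lines for the culture means. ENRI libraries lie above all others for every gene, while RANKL libraries lie near ENRI for Apoa1 and Apoa4 and beside or below WENRC for Mttp, Fabp1, Fabp2 and Rbp2.

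RANKL was where the members parted. Against ENRI, 7 of 10 were called lower in RANKL (Apoc3, Apoc2, Apob, Mttp, Fabp1, Fabp2 and Rbp2) and 0 higher, where 10.5% of all tested genes were called lower and 10.4% higher. All 10 members had both RANKL libraries below both ENRI libraries, as 32.3% of tested genes did, and the median change was -2.03 against 0.00 over all tested genes. Against WENRC, 4 of 10 were called higher in RANKL (Apoa1, Apoa4, Apoc3 and Apoc2), where 8.53% of tested genes were, and 0 lower, where 3.62% were. RANKL and WENRC libraries did not overlap for 6 members, all higher in RANKL (the same 4, Apob and Cd36), as for 34.1% of tested genes, and overlapped for Mttp, Fabp1, Fabp2 and Rbp2. The median change against WENRC was 0.94, against -0.01 over all tested genes. By the authors' deposited table, 10 members passed an adjusted p of 0.05 in RANKL against ENRI and 5 in RANKL against WENRC, where 19.6% and 27.8% of tested genes did, and 10 in WENRC against ENRI, where 12.5% did. The 3 comparisons share libraries with each other.

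The calls with RANKL also leaned on single libraries. Without RANKL 1 or without RANKL 2, limma called 0 members in RANKL against ENRI (111 and 64 genes in all, with 8 members at an unadjusted p under 0.05 each time), although changes such as that of Rbp2 (-5.42 and -5.39, against -5.41) moved little. Without ENRI 1 the change of Rbp2 was -6.01, and without ENRI 2 it was -4.80. Without WENRC 1 or WENRC 2 it stayed at -5.41. In RANKL against WENRC the calls over all tested genes, the members' included, were likewise lost without RANKL 1 or without RANKL 2. Changes such as that of Apoa1 (4.69 and 4.45, against 4.57) again moved little. In each such fit the lone library left was assumed to vary like the other cultures. Calls over all tested genes, the members' included, also became fewer without WENRC 1 or without WENRC 2. Without WENRC 1 the changes of Apoa1, Apoa4, Apoc3 and Apoc2 against WENRC were 4.87, 4.65, 2.37 and 1.89. Without WENRC 2 they were 4.28, 3.29, 1.58 and 1.52.

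**Figure D2:**
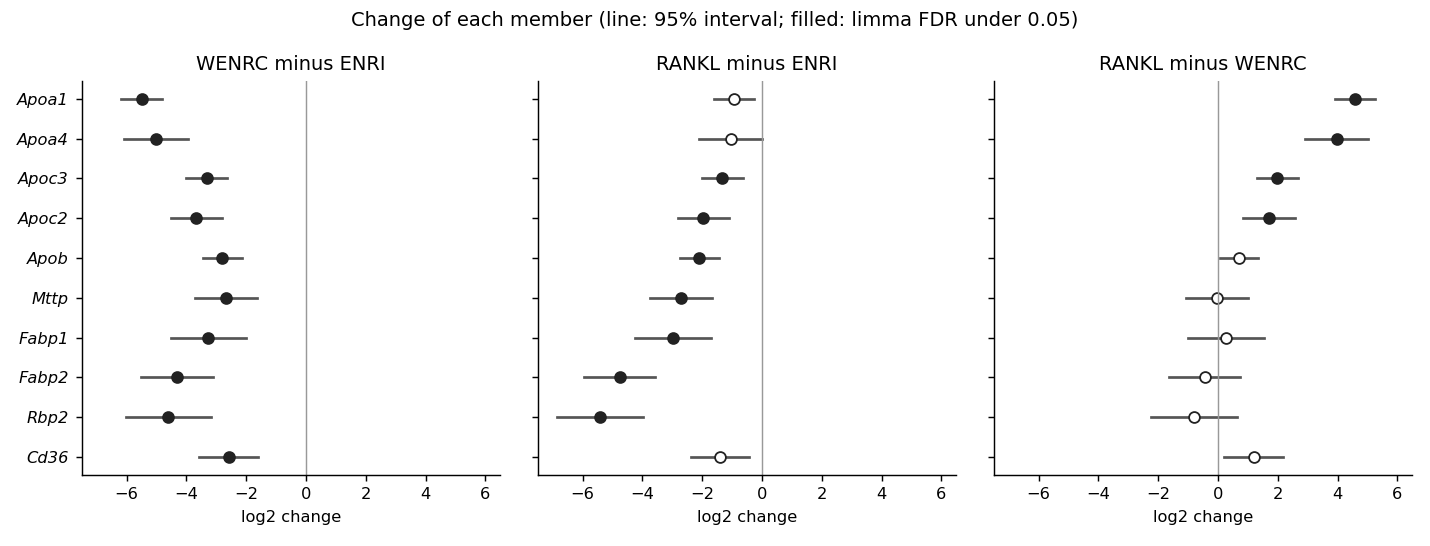
Change of each of the 10 genes (log2 scale) in RANKL against ENRI, RANKL against WENRC and WENRC against ENRI, with 95% confidence intervals from limma and filled points where the FDR was under 0.05. The change of WENRC against ENRI is negative throughout, and that of RANKL against WENRC runs from 4.57 for Apoa1 to -0.81 for Rbp2.

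Apoa1, the main protein of high density lipoprotein, and Apoa4, an apolipoprotein made mainly by the gut in response to fat, lie with Apoc3 in 1 cluster on chromosome 9. Apoa1 (NM_009692, mm9 chr9:46036713-46038552, plus strand) stood at 11.32 and 11.56 in RANKL, 12.08 and 12.66 in ENRI, and 7.16 and 6.57 in WENRC. It was thus high in both RANKL and ENRI and low in WENRC, with no overlap between any of the cultures. RANKL exceeded WENRC by 4.57 ± 0.27 (SE, FDR 0.00144 by limma), 23.8 times, while its difference from ENRI, -0.93 ± 0.27 (SE), missed the threshold (FDR 0.0615 by limma). In the authors' deposited table, with signs turned to match, the difference from ENRI was -1.07 with an adjusted p of 0.00932.

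Apoa4 (NM_007468, chr9:46048927-46051541, plus strand) followed the same order, with 11.99 and 12.40 in RANKL, 13.16 and 13.31 in ENRI, and 8.91 and 7.54 in WENRC. The RANKL pair lay about as far below ENRI as for Apoa1, and WENRC 2 lay well below WENRC 1. RANKL exceeded WENRC by 3.97 ± 0.43 (SE, FDR 0.00606 by limma), or by 4.65 without WENRC 1 and 3.29 without WENRC 2, and differed from ENRI by -1.05 ± 0.43 (SE, FDR 0.139 by limma). In the authors' deposited table the latter was -1.15 with an adjusted p of 0.000847.

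Apoc3 (NM_001289756, chr9:46041133-46043719, minus strand), which restrains lipoprotein lipase, sits between them on the opposite strand. Its level was 6.94 and 7.03 in RANKL, 8.32 and 8.32 in ENRI, and 5.40 and 4.62 in WENRC. RANKL lay between the other cultures and was called different from both, lower than ENRI by -1.34 ± 0.28 (SE, FDR 0.0241 by limma) and higher than WENRC by 1.98 ± 0.28 (SE, FDR 0.0117 by limma). Apoc3 was the lowest of the 3 cluster genes in each culture, also per kilobase of gene.

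The 3 genes span 14829 bp, with 2581 bp between Apoa1 and Apoc3 and 5208 bp between Apoc3 and Apoa4. None of the tested genes next to them was called. Sik3, a salt-inducible kinase upstream of Apoa1, differed by 0.13 between RANKL and ENRI and by -0.23 between WENRC and ENRI, and Zpr1 and Bud13 on the other side differed by 0.13 and 0.23 between WENRC and ENRI. Apoa5, the next apolipoprotein gene of the cluster and known mainly from liver, was between 2.69 and 3.01 in all 6 libraries, under the minimum for testing.

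**Figure D3:**
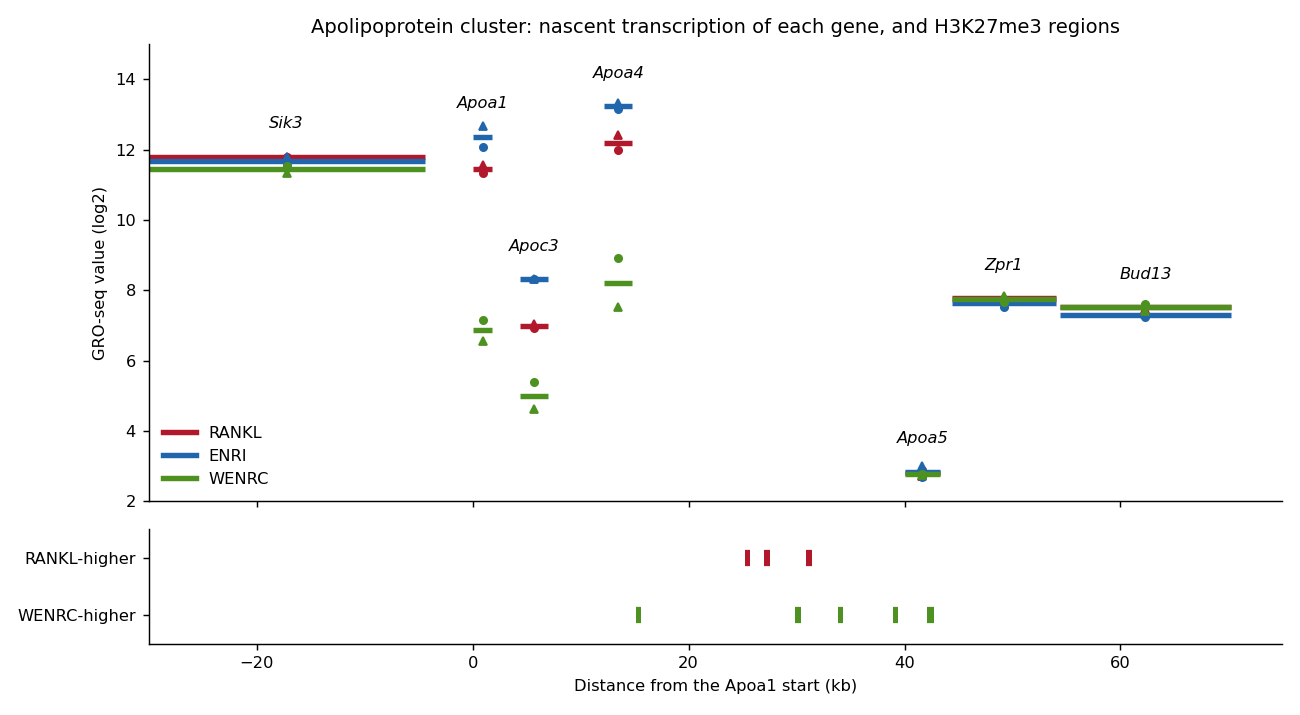
Genes and H3K27me3 regions around Apoa1, by distance from its start in kilobases. The upper panel gives each gene's GRO-seq level (log2 scale) by culture, with lines for means over the gene's extent (Sik3 is cut off at the left) and circles and triangles for libraries 1 and 2. The cultures stand apart for Apoa1, Apoc3 and Apoa4 and lie close together for Sik3, Zpr1, Bud13 and Apoa5. The lower panel marks regions with more tags in RANKL or in WENRC.

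Apoc2 (NM_001277944, chr7:20256928-20263290, minus strand), the activator of lipoprotein lipase, stood at 7.91 and 7.68 in RANKL, 9.25 and 10.27 in ENRI, and 6.27 and 5.91 in WENRC. RANKL was midway and did not overlap either culture. It was lower than ENRI by -1.96 ± 0.35 (SE, FDR 0.0158 by limma) and higher than WENRC by 1.71 ± 0.35 (SE, FDR 0.0315 by limma). The gene lies wholly inside a listed readthrough transcript with Apoc4, so the reads of the 2 rows cannot be told apart. Nearby, Apoc4 itself was called lower in WENRC than in ENRI by -1.28 (FDR 0.027), while Apoe was called higher by 0.74 (FDR 0.037), both by limma, so the genes of this cluster did not move one way.

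Apob and Mttp, the scaffold of the chylomicron and the protein that fills it with triglyceride, stood much closer to WENRC in the RANKL culture. Apob (NM_009693, chr12:7984483-8023645, plus strand) had levels of 11.71 and 11.85 in RANKL, 13.92 and 13.84 in ENRI, and 11.46 and 10.69 in WENRC. RANKL was lower than ENRI by -2.10 ± 0.27 (SE, FDR 0.00629 by limma), 4.29 times. Both RANKL libraries lay above both WENRC libraries, but the difference of 0.70 (95% interval 0.05 to 1.35) missed the threshold after adjustment (FDR 0.146 by limma).

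Mttp (NM_001163457, chr3:137752819-137806352, minus strand) had levels of 11.16 and 11.23 in RANKL, 13.39 and 14.43 in ENRI, and 11.70 and 10.77 in WENRC. The RANKL libraries fell inside the WENRC range, with a difference of -0.04 and a 95% interval of -1.08 to 1.01, wide enough to hold a 2-fold difference either way. Against ENRI both other cultures were lower, RANKL by -2.71 ± 0.43 (SE, FDR 0.0116 by limma) and WENRC by -2.68 ± 0.43 (SE, FDR 0.0173 by limma).

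The cytosolic fatty acid carriers Fabp1 (liver type) and Fabp2 (intestinal type) were high in ENRI and low in both other cultures. Fabp1 (NM_017399, chr6:71149882-71155017, plus strand) had levels of 8.01 and 8.07 in RANKL, 10.45 and 11.61 in ENRI, and 8.42 and 7.11 in WENRC. RANKL lay between the WENRC libraries and 7.93 times below ENRI, a change of -2.99 ± 0.52 (SE, FDR 0.0147 by limma). Its difference from WENRC was 0.27, with a 95% interval of -0.99 to 1.54.

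Fabp2 (NM_007980, chr3:122597990-122602424, plus strand) had levels of 6.05 and 6.49 in RANKL, 10.30 and 11.77 in ENRI, and 7.00 and 6.44 in WENRC. RANKL and WENRC overlapped, and both lay far below ENRI. The change from ENRI was -4.76 ± 0.49 (SE, FDR 0.00379 by limma) in RANKL, 27.2 times, and -4.32 ± 0.49 (SE, FDR 0.00996 by limma) in WENRC. Without ENRI 1 the change in RANKL was -5.50 and without ENRI 2 it was -4.03, and in the authors' deposited table it was -5.83. Fabp2 lies wholly inside the antisense gene 4933405D12Rik, which changed by -3.70 and -3.38 in the same comparisons, and since the sources used here do not state whether counting used strand, the reads of the pair cannot be told apart.

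Rbp2 (NM_009034, chr9:98390956-98410190, plus strand), the cellular retinol-binding protein of the enterocyte, showed the widest gap between RANKL and ENRI among the members. Its level was 7.52 and 7.49 in RANKL, 12.31 and 13.52 in ENRI, and 9.11 and 7.52 in WENRC. RANKL was at or just under the lower WENRC library. The change against ENRI was -5.41 ± 0.59 (SE, FDR 0.00424 by limma), 42.4 times, and it was -6.01 without ENRI 1 and -4.80 without ENRI 2. Against WENRC the change was -0.81, with a 95% interval of -2.24 to 0.62 and an FDR of 0.417 by limma, and it was -0.02 without WENRC 1 and -1.60 without WENRC 2. In the authors' deposited table that difference was -1.26 with an adjusted p of 0.0388.

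Cd36 (NM_001159558, chr5:17287508-17394777, minus strand), the scavenger receptor that takes up long chain fatty acids, was the lowest member per kilobase in each culture. It had levels of 6.48 and 6.02 in RANKL, 7.41 and 7.90 in ENRI, and 4.53 and 5.60 in WENRC. RANKL lay between the cultures without overlap but was called different from neither by limma, at -1.40 ± 0.40 (SE, FDR 0.0563) from ENRI and 1.19 ± 0.40 (SE, FDR 0.113) from WENRC. WENRC was lower than ENRI by -2.59 (FDR 0.0164 by limma). In the authors' deposited table RANKL differed from ENRI by -1.94, with an adjusted p of 0.0015.

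Placing RANKL on the line from the WENRC mean (0%) to the ENRI mean (100%) set the members in order. Apoa1 was at 83.1% and Apoa4 at 79.1%, followed by Apoc3 at 59.7%, Apoc2 at 46.5% and Cd36 at 45.8%. Apob was at 25.0%, Fabp1 at 8.41% and Mttp at -1.37%, with Fabp2 and Rbp2 beyond the WENRC end at -10.3% and -17.6%. Leaving out each of the 6 libraries in turn kept Apoa1 between 78.9% and 87.8% and Apoa4 between 75.1% and 83.2%. The other members were less steady than these. Apoc3 ran from 54.2% to 63.9%, Apoc2 from 40.8% to 54.1% and Cd36 from 31.7% to 55.1%. At the low end Apob ran from 13.1% to 34.0%, Fabp1 from -14.6% to 23.7% and Mttp from -22.9% to 13.7%. Fabp2 ran from -18.0% to -3.61% and Rbp2 from -42.0% to -0.302%. The ranges of Fabp1, Mttp, Fabp2 and Rbp2 overlapped, while that of Apob lay above those of Fabp2 and Rbp2. These positions describe means of 2 libraries and carry no test.

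Per kilobase of gene, on the log2 scale, Apoa4 and Apoa1 were the highest members in every culture, at 11.85 and 11.49 in ENRI, 10.81 and 10.56 in RANKL, and 6.84 and 5.99 in WENRC. In ENRI the next 5 lay close together, from Fabp2 at 8.89 to Mttp at 8.17, closer than the SDs of most of them (0.73 to 1.04, Apob at 0.06 aside). In RANKL the same 5 were spread wider, with Apob at 6.49, Fabp1 at 5.68, Mttp at 5.46, Fabp2 at 4.12 and Rbp2 at 3.24. In WENRC they ran from Apob at 5.79 through Mttp at 5.49, Fabp1 at 5.41 and Fabp2 at 4.57 to Rbp2 at 4.05. Cd36, a gene of over 100 kb by its coordinates, had the lowest level per kilobase in ENRI (0.91), RANKL (-0.50) and WENRC (-1.68).

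Markers of other cells were read beside these results. The summed level of 9 enterocyte markers, on the log2 scale, was 15.50 and 16.36 in ENRI, 14.73 and 14.80 in RANKL, and 13.59 and 12.82 in WENRC, the same order of cultures as for Apoa1. In RANKL 4 of the 9 were called lower than in ENRI, and 4 were called higher than in WENRC. The part of enterocyte content in the members' levels was not tested. Goblet cell markers, 6 in all, summed to 13.65 and 13.61 in RANKL, 13.81 and 13.28 in ENRI, and 11.86 and 10.83 in WENRC, with 4 called lower in WENRC than in ENRI and 3 called higher in RANKL than in WENRC. Paneth cell markers, 5 in all, summed to 11.51 and 11.35 in RANKL, 8.62 and 9.71 in ENRI, and 9.02 and 9.60 in WENRC, and 3 were called higher in RANKL in each of its comparisons. Stem cell markers, 6 in all, summed to 13.41 and 13.51 in RANKL, 10.9 and 11.35 in ENRI, and 13.75 and 13.86 in WENRC. Of these, 4 were called higher in RANKL than in ENRI and 0 lower. The part of goblet, Paneth and stem cell content was not tested either. The 5 hepatocyte markers summed to between 7.78 and 8.17. Of these, Alb (2.06 to 2.99), Fgb (0.00 to 0.16) and Ahsg (0.58 to 0.94) were under the testing minimum in every library, Serpinc1 was called in no comparison, and Ttr was called higher in RANKL than in ENRI by 1.60 and than in WENRC by 1.0 (FDR 0.00874 and 0.0429 by limma). All 4 mesenchymal markers were also under it, as were Cdh5, Adipoq and Plin1 among 4 markers of endothelium and fat, which also express Cd36. The 5 immune markers were not all under it. They summed to between 7.28 and 7.87, and of the 4 tested 0 were called in any comparison. The part of immune cells in the Cd36 level was not tested.

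The wider pathway was read from 114 further genes in 7 lists, of which 101 were tested. In RANKL 36 were called lower than in ENRI and 6 higher, with a median change of -0.46. In WENRC 43 were called lower than in ENRI and 2 higher, with a median of -0.71. Between RANKL and WENRC 13 were called higher in RANKL and 2 lower, with a median of 0.22, where all tested genes had medians within 0.01 of 0 in each comparison. Over all tested genes, 10.5% were called lower and 10.4% higher in RANKL than in ENRI, 9.74% lower and 4.85% higher in WENRC than in ENRI, and 8.53% higher and 3.62% lower in RANKL than in WENRC.

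**Figure D4:**
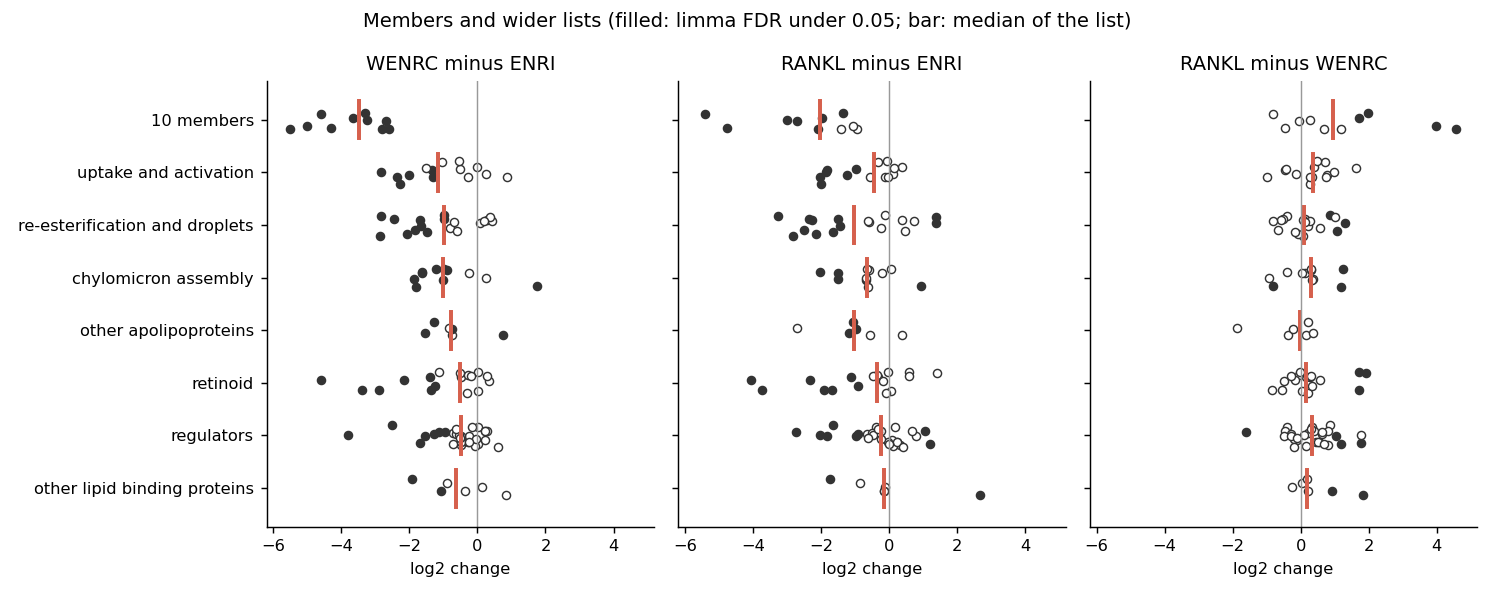
Changes of the 10 genes and of the tested genes of 7 wider lists (log2 scale) in the 3 comparisons, with points for genes, filled where the limma FDR was under 0.05, and a red bar for the median. Medians of the 7 wider lists lie below 0 in both comparisons with ENRI and between -0.03 and 0.37 in RANKL against WENRC.

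Uptake and activation genes, 14 in all, counted 6 lower in RANKL than in ENRI and 6 lower in WENRC than in ENRI. Acsl5, an acyl-CoA synthetase, changed by -1.82 in RANKL and by -1.35 in WENRC against ENRI (FDR 0.00959 and 0.0277 by limma). Scarb2, a lysosomal membrane protein, was lower in RANKL by -0.97, and Slc27a2, a fatty acid transporter and acyl-CoA synthetase, was lower in WENRC by -2.84 (FDR 0.00794 and 0.0127 by limma). Pla2g12b, a lipase relative linked to lipoprotein secretion, was lower in WENRC by -1.31 (FDR 0.0131 by limma).

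Of 18 genes of triglyceride resynthesis and droplets, 9 were lower and 2 higher in RANKL than in ENRI, and 10 were lower in WENRC than in ENRI. Cidec, a lipid droplet protein, changed by -2.28 in RANKL (FDR 0.0038 by limma). Agpat2, an acyltransferase of glycerolipid synthesis, changed by -2.14 in RANKL and -2.06 in WENRC, and Dgat2, which makes triglyceride, by -2.46 in WENRC. Agpat2 stood at 8.35 and 8.32 in RANKL and at 8.72 and 8.11 in WENRC, so these cultures overlapped, as they did for Mttp.

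The chylomicron assembly list had 11 tested genes, of which 4 were lower and 1 higher in RANKL than in ENRI, and 8 lower and 1 higher in WENRC than in ENRI. P4hb, the partner subunit of Mttp, changed by -2.04 in RANKL (FDR 0.0111 by limma), where Mttp itself changed by -2.71. Apobec1, which edits the Apob message, differed between RANKL and ENRI by -0.63 (FDR 0.135 by limma) but was lower in WENRC than in ENRI by -1.81 and higher in RANKL than in WENRC by 1.19 (FDR 0.0136 and 0.0367 by limma). Vldlr, a lipoprotein receptor, was the gene called higher in both comparisons with ENRI, by 0.93 in RANKL and 1.76 in WENRC. Among 6 tested further apolipoproteins, 3 were lower in RANKL than in ENRI, including Apom at -0.97 and Apol7a at -1.17, and 3 were lower and 1 higher in WENRC, Apoc4 and Apoe among them.

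Of 17 tested retinoid genes, 7 were lower in RANKL than in ENRI, 7 were lower in WENRC than in ENRI, and 3 were higher in RANKL than in WENRC. Aldh1a1, which makes retinoic acid from retinal, had levels of 8.14 and 7.94 in RANKL, 11.54 and 12.64 in ENRI, and 7.43 and 7.54 in WENRC. The ENRI libraries stood far above the other 4, with changes of -4.05 in RANKL and -4.60 in WENRC (FDR 0.00274 and 0.00624 by limma). Bco2, a carotenoid-cleaving oxygenase, changed by -3.74 in RANKL. Rdh7, a retinol dehydrogenase, changed by -3.40 in WENRC against ENRI and was higher in RANKL than in WENRC by 1.71 (FDR 0.0411 by limma).

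Among 29 tested regulators of these pathways, 6 were lower and 2 higher in RANKL than in ENRI, and 7 were lower in WENRC than in ENRI. Hnf4g, a nuclear receptor of the gut epithelium, had levels of 13.09 and 13.11 in RANKL, 12.85 and 13.14 in ENRI, and 11.54 and 11.08 in WENRC. RANKL and ENRI overlapped, at a difference of 0.10 (FDR 0.76 by limma), and RANKL exceeded WENRC by 1.79 (FDR 0.00751 by limma). Creb3l3, a membrane-bound activator of apolipoprotein genes, was lower than in ENRI by -2.03 in RANKL and by -3.82 in WENRC (FDR 0.0284 and 0.0103 by limma), and its difference of 1.79 between RANKL and WENRC missed the threshold (FDR 0.0548 by limma). Nr1h4, the bile acid receptor, was lowest in RANKL, by -2.75 against ENRI and -1.61 against WENRC (FDR 0.00341 and 0.0159 by limma). Klf4, a factor of differentiated epithelium, changed by -1.82 in RANKL against ENRI (FDR 0.0142 by limma).

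Among the other lipid binding proteins, 1 gene was called in the direction opposite to Fabp1 and Fabp2 in RANKL against ENRI. Fabp5, the epidermal fatty acid-binding protein, had levels of 7.78 and 7.76 in RANKL, 4.79 and 5.44 in ENRI, and 5.99 and 5.90 in WENRC. RANKL stood above both other cultures, by 2.66 against ENRI and 1.82 against WENRC (FDR 0.00344 and 0.0113 by limma), while Fabp1 and Fabp2 were called lower in RANKL than in ENRI. Of the 6 tested genes of this list, Fabp5 was the 1 called higher in RANKL than in ENRI, and Scp2, a sterol carrier, the 1 called lower, by -1.73. Scp2 and Acbd5, an acyl-CoA-binding protein, were the 2 called lower in WENRC than in ENRI, by -1.92 and -1.07.

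The mean of the members, each centred on its own mean over the 6 libraries, was -0.42 and -0.35 in RANKL, 1.73 and 2.43 in ENRI, and -1.34 and -2.05 in WENRC. Among 1754 tested genes that ranged over at least 2 on the log2 scale, those most like this mean over the 6 libraries were Ephx2 (Pearson r 0.999), Tmc5 (0.998), and Anxa13, Chp2 and Sord (each 0.997). These are a soluble epoxide hydrolase, a transmembrane channel-like protein, an annexin of the intestine, a calcineurin-like cofactor of ion exchangers and sorbitol dehydrogenase. Ephx2 changed by -1.88 in RANKL and -2.80 in WENRC against ENRI. Against the mean of the other 9, the members' own r ran from 0.81 for Apoa1 to 0.98 for Apoc2 and Apob. The named genes thus match an average that single members fit less closely. The 6 points share libraries and cultures, so the correlations are descriptions.

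H3K27me3 regions that differed between RANKL and WENRC were assigned to 4 of the 10 genes, in counts near the background of all listed genes in each direction. The authors' 2 tables each hold regions of 1 direction, 35798 with more tags in RANKL and 13607 with more in WENRC, assigned to the nearest gene. In the first, 2 members had a region (Apoa4 and Rbp2), where 33.7% of listed genes had one, and in the second 3 did (Apoa4, Apob and Fabp1), where 24.0% had one. Apoa1, Apoc3, Apoc2, Mttp, Fabp2 and Cd36 carried none. Tag numbers below are summed over the pooled RANKL libraries and scaled for WENRC by the authors, folds are the authors', and there is no replicate check. The tables list regions past the authors' thresholds only, so a gene without a region may still carry the mark at like levels in both cultures.

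Rbp2 had the region with the largest fold, 3.76 kb upstream of its start (chr9:98386942-98387442), with 20 tags in RANKL and 2.7 in WENRC, a 7.41-fold difference. That fold lay at percentile 98.5 of its table, whose median was 2.92. It was the 1 member region of the RANKL-higher table within 5 kb of a start, where 19.1% of genes had one. Transcription of Rbp2 in RANKL, 7.52 and 7.49, was at or under that of WENRC, a difference of -0.81 that was not called (FDR 0.417 by limma). A link between the mark and transcription was not tested for any member.

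Apoa4 had regions of both directions. At its 3′ end, 3150 bp past its start (chr9:46051827-46052327), WENRC had 17.1 tags and RANKL 3, a 5.7-fold difference, and 5.44% of genes had a WENRC-higher region within 5 kb of a start. This was the culture with the lower Apoa4 transcription. Further on, 13.2 kb past the start (chr9:46061914-46062414), RANKL had 21 tags and WENRC 7.2, a 2.92-fold difference. There the culture with more tags was the one with the higher Apoa4 transcription. Between Apoa4 and Zpr1, RANKL-higher regions started at 25.2, 27 and 30.9 kb from the Apoa1 start and WENRC-higher ones at 15.1 (the region at the 3′ end of Apoa4), 29.9, 33.8, 38.9 and 42.1 kb.

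Apob had 6 WENRC-higher regions, a number reached by 1.6% of listed genes. No other listed gene lay within 100 kb of Apob, and that share takes no account of the spacing of genes. The regions were all intergenic. They lay at 211, 30.1 and 15.3 kb before the Apob start and 67.5, 75.4 and 78.5 kb after it, with folds of 3.0, 6.0, 4.5, 3.0, 3.6 and 3.45. The largest held 41.4 tags in WENRC and 12 in RANKL. Apob transcription differed between the 2 cultures by 0.70, which was not called. Fabp1 had 1 WENRC-higher region 22.2 kb upstream, with 22.5 tags in WENRC and 6 in RANKL, a 3.75-fold difference. With at most 41.4 tags a region, counting error alone is large for each of these folds.

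**Figure D5:**
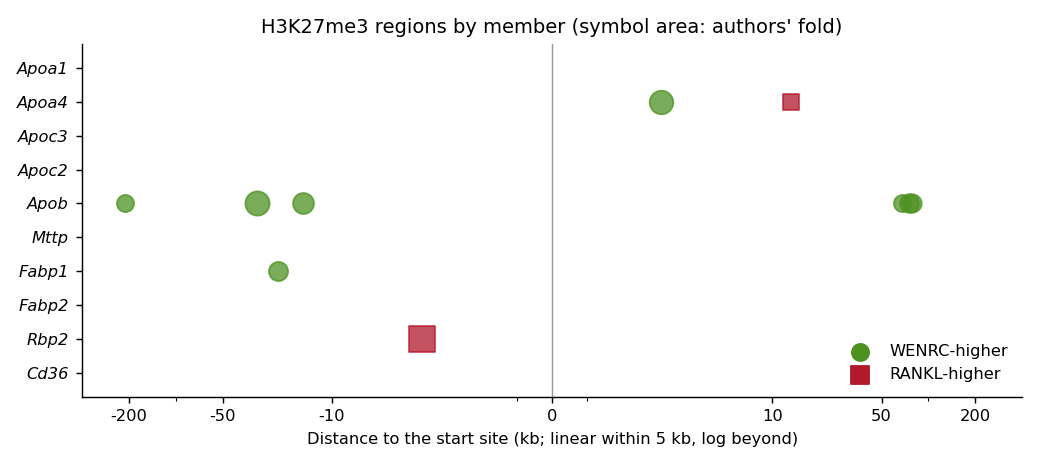
The 10 H3K27me3 regions assigned to the genes, by distance from the start site in kilobases (linear within 5 kb, log beyond), with squares for RANKL-higher and circles for WENRC-higher regions and symbol area in proportion to the authors' fold. The Rbp2 region and the distal Apoa4 region are higher in RANKL, the other 8 are higher in WENRC, and 6 genes have none.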

How the data were processed

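The GRO-seq table holds the authors' normalized expression values on a log2 scale, 1 column per library, made per the file headers with HOMER's analyzeRepeats.pl over whole mm9 RefSeq genes and then getDiffExpression.pl. The shape of the values, drawn together at low levels, means that changes of weakly read genes are understated. Strand handling and read totals are not given in the sources used here, so the depth is unknown and no interval that needs it is given. Bowtie2 2.3.4.1, HOMER and DESeq2 are named in the submitters' processing notes. The deposited table also gives the authors' log2 fold changes with p-values, whose sign was found to be second-named minus first-named culture and was turned. Gene length in bp, another deposited column, gave levels per kilobase.

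H3K27me3 regions were called by the authors with 1 culture as control of the other, per the file headers. The deposited tag counts of RANKL are whole numbers, the deposited WENRC tags are a scaled signal, and the authors' fold is the ratio of the tags.

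Genes with at least 2 libraries at or above log2 of 10 were tested, 16563 of 24505. limma 3.58.1 (R 4.3.3) was fitted to the log2 values as deposited, with a variance trend, all 6 libraries and 3 group means, and two-sided p-values were adjusted by the Benjamini-Hochberg method over all tested genes. The design had been written for counts, and limma was used because the table holds log2 values. The members and lists were chosen with earlier results of these data known. All members are named. In each wider list the named genes are the 2 with the smallest p in RANKL against ENRI and the 2 in WENRC against ENRI. The likeness rule took the 5 genes with the highest Pearson r. Apoe and the other neighbours are named by position, but not all neighbours within 100 kb are named. Some of those left out were called by limma in WENRC against ENRI and others were not. Lower ones include Smyd1 near Fabp1 (-1.73, FDR 0.0202) and Adh7 near Mttp (-2.31, FDR 0.0206). Trmt10a, next to Mttp, was higher (0.96, FDR 0.0445).

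ENRI and WENRC libraries with the same number come from the same mouse per the labels. Their deviations correlated across genes at r = 0.41, although they had the same sign for only 3 of the 10 members. Mouse and the dates in the file headers cannot be separated. Alternatives were the replicate block, the libraries in the fit, the filter on low values, the scaling, leaving out each library and, for regions, fold and distance.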

Additional observations from a re-analysis of the deposited data

How the results depend on the processing

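The number of members called was compared with its value under every alternative. In RANKL against ENRI (7 members) it ranged from 0 to 9 when 1 library was left out. In RANKL against WENRC (4 members) that range was 0 to 5, and in WENRC against ENRI (10 members) 0 to 10. When limma was given the ENRI and WENRC libraries alone, WENRC against ENRI gave 0 members (adjusted p from 0.0535 to 0.0729), where 0.0% of all tested genes were called. The replicate block on the libraries of the comparison alone gave 6 members there, where 0.749% of all tested genes were called. In RANKL against WENRC that block gave 7 members, with Apob, Rbp2 and Cd36 added, where 28.3% of all tested genes were called. The replicate block over all 6 libraries changed no call of a single member. RANKL and ENRI share only replicate numbers, as do RANKL and WENRC, and their same-numbered deviations correlated at -0.20 and -0.32. Over all alternatives the share of all tested genes called ran from 0.386% to 42.1% in RANKL against ENRI, from 0.0% to 31.4% in RANKL against WENRC and from 0.0% to 40.1% in WENRC against ENRI. Mttp and Fabp1 changed sign in RANKL against WENRC, Mttp to 0.43 without WENRC 1 (-0.50 without WENRC 2) and Fabp1 to -0.38 without WENRC 2 (0.93 without WENRC 1), none of them called. Upper-quartile scaling moved the median of all genes from -0.01 to -0.12 in RANKL against WENRC and from -0.01 to 0.10 in WENRC against ENRI. It moved the share of higher calls from 70.2% to 53.3% and from 33.2% to 54.1% (58.7% and 51.7% with quantile scaling), and no member's direction changed under either. Of the 10 member regions (2 RANKL-higher and 8 WENRC-higher), 4 (1 and 3) had a fold of at least 4, 2 (1 and 1) lay within 5 kb of a start, and 2 (1 and 1) overlapped a gene extended by 10 kb. Unknown GRO-seq depth and 2 libraries a culture limit what these comparisons can resolve.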
